A study of Mus musculus with 2 samples.

Results

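The genes described here are 9 genes of iron storage, uptake, export and sensing in mouse cerebral cortex, out of 55536 annotated genes: Fth1, Ftl1, Trf, Tfrc, Slc40a1, Slc11a2, Aco1, Ireb2 and Cp. They were chosen by symbol, with their levels in both of these libraries already known, so the order of their levels and the difference of any one of them is a description. Ribosome-reduced total RNA of the left cerebral cortex was measured by RNA-seq in 2 female adults, 8 to 10 months old, with 1 library per animal made from 300 ng of RNA and added ERCC spike-ins (synthetic transcripts). Both mice were B6CASTF1/J, an F1 cross between C57BL/6J and CAST/EiJ, and the labels name no treatment and no engineered allele for either. Replicate 2 is animal 5 in the labels and replicate 1 is animal 1, and both stand in the same group, so the study holds no contrast and no test between conditions was possible. Each difference below is replicate 2 minus replicate 1, stands on 1 library per animal, and has no replicate check.

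Cells take up iron bound to transferrin, the plasma carrier that Trf encodes, through the transferrin receptor Tfrc, and Slc11a2 (DMT1) carries the released iron out of the endosome. Iron not in use is held inside shells of ferritin heavy chain (Fth1) and light chain (Ftl1), and iron leaves the cell through ferroportin (Slc40a1), helped by the ferroxidase ceruloplasmin (Cp). The iron regulatory proteins, encoded by Aco1 and Ireb2, bind stem-loops called iron responsive elements when iron is scarce: in a 5′ untranslated region (5′ UTR) the bound protein holds back translation, and in the 3′ UTR of Tfrc it protects the mRNA. In brain, oligodendrocytes and choroid plexus are known sources of transferrin, and endothelial cells of brain vessels carry the transferrin receptor.

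The stem-loops are shown because they are the kind of element that the proteins encoded by Aco1 and Ireb2 bind. A search of the GENCODE M21 transcripts for a loop of CAGTGN, preceded by a C that lies 5 bases before it, with 5 paired bases between that C and the loop and at least 4 of 5 pairs below it, found 8 sites in 5 of the 9 genes. Each site below is 30 bases of the transcript, 5′ to 3′, with the unpaired C and the loop in capitals. The sites of Fth1 (chr19:9982731-9982760, plus strand, mm10), Ftl1 (chr7:45459779-45459808, minus strand) and Slc40a1 (chr1:45925465-45925494, minus strand) lie in the 5′ UTR. Those of Tfrc-201 (chr16:32631218-32631247, chr16:32631597-32631626, chr16:32631662-32631691 and chr16:32631709-32631738, plus strand, in this order) and Slc11a2-205 (chr15:100395153-100395182, minus strand) lie in the 3′ UTR.
Fth1: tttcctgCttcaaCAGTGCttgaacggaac
Ftl1: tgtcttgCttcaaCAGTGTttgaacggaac
Slc40a1: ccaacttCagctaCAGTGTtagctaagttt
Tfrc site 1: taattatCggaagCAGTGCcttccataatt
Tfrc site 2: acattatCgggagCAGTGTcttccataatg
Tfrc site 3: tctatatCggagaCAGTGAtctccatatgt
Tfrc site 4: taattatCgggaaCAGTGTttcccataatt
Slc11a2: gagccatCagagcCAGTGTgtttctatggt

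The Slc11a2 site matched only when 1 unpaired base was allowed on the 3′ side of the stem, a rule written with the shape of that element known. No site was found in any annotated transcript of Trf, Aco1, Ireb2 or Cp. The strict rule was met by 51 of 58797 protein-coding transcripts (0.0867%, from 30 genes) and the rule with the unpaired base by a further 79 (0.134%, from 47 genes). The reverse complements of the same transcripts, which are not the RNA, met the strict rule in 49 transcripts (0.0833%), so a match of letters alone is as frequent on the strand that is not transcribed. The loop letters CAGTG on their own occurred in 86.9% of protein-coding transcripts. A match is a description of the sequence and not a measurement of binding.

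**Figure D1:**
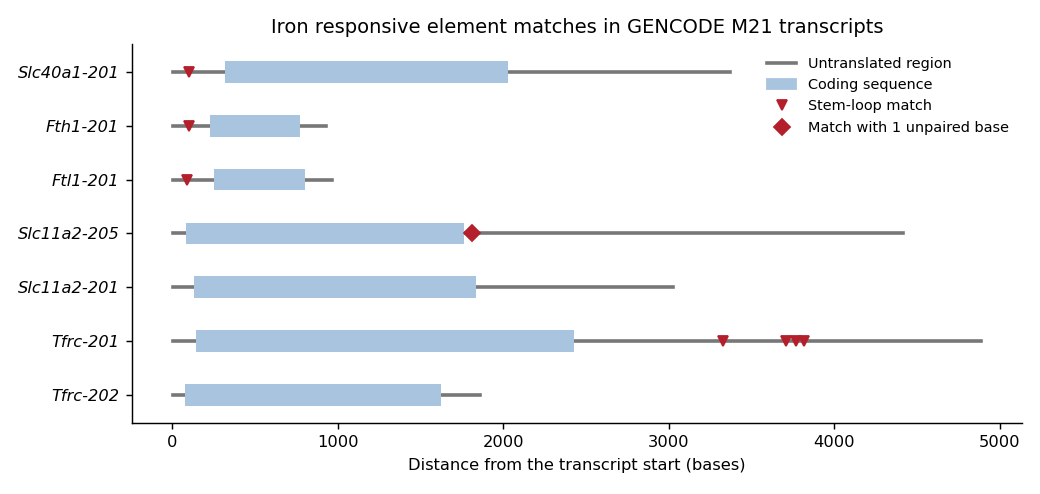
Position of the stem-loop matches (red) in 7 transcripts, drawn to scale from the transcript start in bases, with the coding sequence as a blue box and untranslated regions as a grey line. Slc40a1-201, Fth1-201 and Ftl1-201 hold 1 match each before the coding sequence, Slc11a2-205 holds 1 and Tfrc-201 holds 4 after it, and Slc11a2-201 and Tfrc-202 hold none.

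The first table gave 30234441 expected counts for replicate 2 and 28327434 for replicate 1, of which the 9 genes took 33831 (0.112%) in replicate 2 and 29094 (0.103%) in replicate 1. Levels are TPM, the share of all transcripts per unit of length, as the authors deposited them. Differences are log2 differences of counts scaled with TMM factors (a scaling that sets most genes to no change), over the 14122 genes that averaged 50 counts or more, and their counting SE covers the sampling of reads alone. Of these genes 73.3% lay within 1.2-fold, and the central 95% of differences ran from -0.55 to 0.71. Scaling on the spike-ins added 0.25 to the median gene, and under it all 9 genes were higher in replicate 2, against 7 of 9 under TMM and 6 of 9 in the second table, where Fth1 stood at -0.010. Markers of cortical cell classes were at high levels: Slc17a7 of excitatory neurons had 488 TPM in replicate 2, against 452 TPM in replicate 1, and Slc1a2 of astrocytes had 804 TPM in replicate 2, against 846 TPM in replicate 1. Because the tissue is a mixture, more cells of a type and more RNA per cell cannot be told apart in any value below.

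Fth1 was the most abundant of the 9 genes, ranking 3 among 12958 nuclear protein-coding genes with at least 1 TPM in both libraries. Trf followed, then Ftl1, and the least abundant were Cp and Slc40a1. The mean levels were 1312 ± 72.3 TPM for Fth1, 193 ± 17.2 TPM for Trf, 98.6 ± 0.594 TPM for Ftl1, 31.7 ± 11.6 TPM for Tfrc and 30.1 ± 4.07 TPM for Slc11a2 (SD, n = 2). They were 22.9 ± 0.283 TPM for Ireb2, 13.8 ± 1.83 TPM for Aco1, 5.40 ± 0.636 TPM for Cp and 4.74 ± 0.884 TPM for Slc40a1 (SD, n = 2). In this order 2 pairs of neighbours had overlapping values and could not be ranked, Tfrc with Slc11a2 and Cp with Slc40a1. The means of both pairs stood the other way round in the second table, although in replicate 1 Cp stayed above Slc40a1 there (5.06 against 5.01 TPM). The median detected protein-coding gene had 16.5 TPM, and 6 of the 9 genes lay above it.

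**Figure D2:**
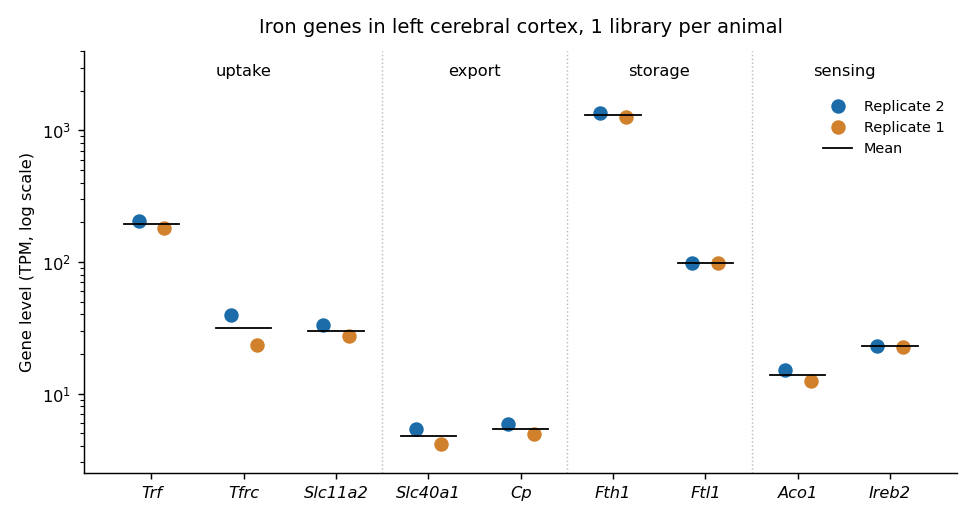
Deposited gene level in TPM on a log axis for the 9 genes grouped by role, with 1 point per library (replicate 2 left, replicate 1 right) and the mean as a bar. Fth1 stands at 1363 TPM in replicate 2, against 1261 TPM in replicate 1, and Tfrc is the gene with the widest gap between the libraries, 39.9 TPM in replicate 2, against 23.5 TPM in replicate 1.

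Tfrc, the receptor that brings transferrin-bound iron into the cell, differed most between the animals (chr16:32608920-32632794, plus strand, mm10, ENSMUSG00000022797.16). It had 39.9 TPM and 2991 counts in replicate 2, and 23.5 TPM and 1528 counts in replicate 1. The credibility intervals that the authors' model gives, whose level is not stated, ran from 37.1 to 42.6 TPM in replicate 2 and from 21.5 to 26.5 TPM in replicate 1, so they did not overlap. The log2 difference was 0.86 (counting SE 0.045), or 1.81-fold, larger in size than 97.8% of the genes compared. It was 0.83 in the second table and 1.11 with spike-in scaling. A gene was called when it passed 1.2-fold and its intervals did not overlap, which 11.1% of all genes did, 7.02% higher in replicate 2 and 4.09% lower. Tfrc was the only one of the 9 genes called, with 0 lower, so 1 of 9 stands near the background share and says nothing of the group as a whole.

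The Tfrc difference lay mostly in Tfrc-201, 1 of 2 Tfrc transcripts that carry the stem-loops. Tfrc-201 (4890 bases, 4 stem-loops in its 3′ UTR) had 29.6 TPM and 2677 counts in replicate 2, and 14.5 TPM and 1258 counts in replicate 1, a ratio of 2.05. Its credibility intervals ran from 26.9 to 29.9 TPM in replicate 2 and from 12.7 to 15.004 TPM in replicate 1. Tfrc-202, which ends earlier with another coding end and lacks the stem-loops, had 7.61 TPM in replicate 2, against 5.62 TPM in replicate 1, a ratio of 1.35, and its intervals overlapped. In the second table the ratios were 1.97 for Tfrc-201 and 1.41 for Tfrc-202. The difference between these ratios was not tested. Tfrc-204, annotated as a retained intron, holds the same 4 stem-loops and went the other way. It had 0.65 TPM and 41.8 counts in replicate 2, and 1.12 TPM and 69.7 counts in replicate 1. In the second table it had 0.253 TPM in replicate 2, against 0.557 TPM in replicate 1.

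Trf, which encodes transferrin itself, moved less (chr9:103204001-103230444, minus strand, ENSMUSG00000032554.15). It had 205 TPM and 5877 counts in replicate 2, and 181 TPM and 4764 counts in replicate 1. The log2 difference was 0.19 (counting SE 0.028), or 1.14-fold, with credibility intervals that did not overlap. Trf thus fell short of 1.2-fold under TMM and became the second called gene under spike-in scaling (0.44). That scaling called 15.3% of all genes, 13.5% higher in replicate 2 and 1.76% lower. Spike-in scaling changed only the fold in a call, and the intervals stayed those of the deposited TPM. Slc40a1 (0.59), Slc11a2 (0.56) and Cp (0.51) had larger spike-in differences than Trf but overlapping intervals, and were not called. In gene-level TPM the carrier stood above its receptor by a factor of 5.15 in replicate 2 and 7.71 in replicate 1. A short transcript held much of the Trf level: Trf-209, annotated as a retained intron, is 433 bases long, and 97.6% of its 100-base windows also occur in Trf-201. It took 86.9 TPM in replicate 2, against 83.0 TPM in replicate 1, yet only 546 counts in replicate 2 and 501 in replicate 1. The coding transcript Trf-201 had 113 TPM in replicate 2, against 94.1 TPM in replicate 1, with intervals that did not overlap. In the second table Trf-209 had 35.5 TPM in replicate 2, against 36.2 TPM in replicate 1.

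Slc11a2, the transporter that carries ferrous iron across membranes, had 33.0 TPM and 1169 counts in replicate 2, and 27.2 TPM and 872 counts in replicate 1 (chr15:100387898-100425072, minus strand, ENSMUSG00000023030.16). The log2 difference was 0.31 (counting SE 0.065), or 1.24-fold, and the credibility intervals overlapped. Its gene level in TPM rested on fragments: 6 annotated transcripts of under 1000 bases took 60.6% of it in replicate 2 and 62.2% in replicate 1, with 172 counts in replicate 2 and 160 in replicate 1. The pair with a whole coding sequence, Slc11a2-205 and Slc11a2-201, took 85.3% of the counts in replicate 2 and 81.7% in replicate 1. Slc11a2 is known in mammals in a form with an iron responsive element and a form without it, which differ at the 3′ end.

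The balance between these forms differed between the libraries. Slc11a2-205, which carries the element, had 10.7 TPM and 868 counts in replicate 2, and 6.58 TPM and 515 counts in replicate 1, a ratio of 1.62 with credibility intervals that did not overlap. Slc11a2-201, which ends in another exon, had 2.33 TPM and 128 counts in replicate 2, and 3.71 TPM and 197 counts in replicate 1, a ratio of 0.628, and its intervals (1.69 to 2.89 TPM in replicate 2, 2.87 to 4.36 TPM in replicate 1) overlapped slightly. The form with the element therefore made up 82.1% of the pair in replicate 2 and 63.9% in replicate 1. The second table gave 82.9% in replicate 2 and 65.0% in replicate 1. This share was singled out after its values were seen.

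**Figure D3:**
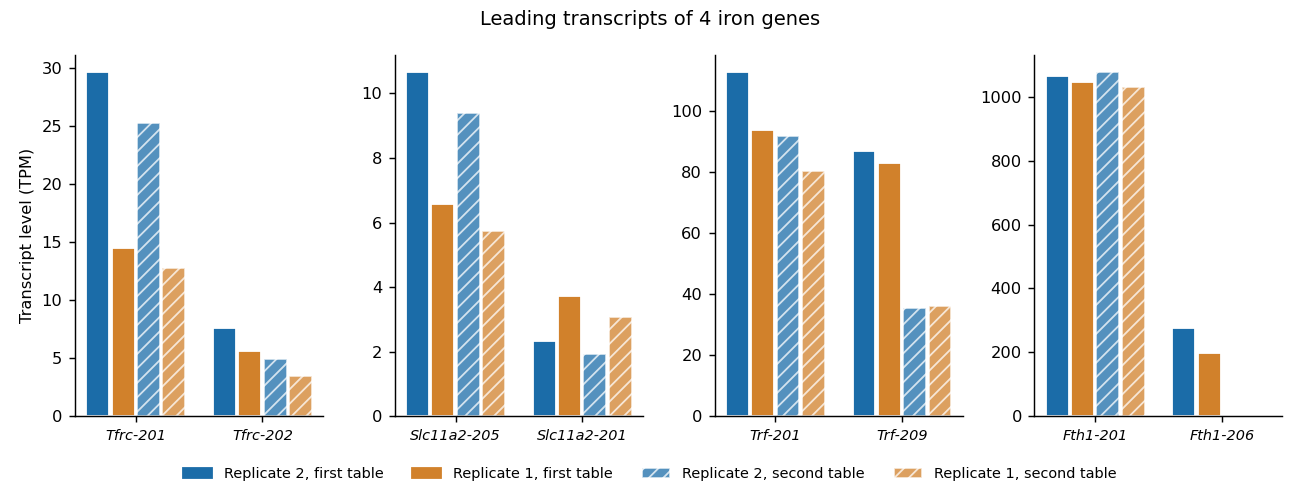
Transcript levels in TPM (bars from 0, each panel with its own scale) for the leading transcripts of Tfrc, Slc11a2, Trf and Fth1, replicate 2 in blue and replicate 1 in orange, solid for the first table and hatched for the second. Tfrc-201 and Slc11a2-205 are higher in replicate 2 in both tables, Slc11a2-201 is lower in both, and Fth1-206 has 0 TPM in the second table.

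The export genes were the least abundant. Slc40a1, ferroportin, the only known cellular exporter of iron in mammals, had 5.36 TPM and 307 counts in replicate 2, and 4.11 TPM and 224 counts in replicate 1 (chr1:45908068-45926523, minus strand, ENSMUSG00000025993.10). Its log2 difference of 0.34 (counting SE 0.13, 1.27-fold) lay inside the central range of all genes, and its gene-level intervals overlapped. Its coding transcript Slc40a1-201, which carries the 5′ UTR stem-loop, had 4.49 TPM in replicate 2, against 3.42 TPM in replicate 1, with intervals that just separated (from 3.70 TPM up in replicate 2, up to 3.68 TPM in replicate 1). The Slc11a2 gene level stood above the Slc40a1 gene level by a factor of 6.15 in replicate 2 and 6.63 in replicate 1. With the short transcripts left out, Slc11a2-205 and Slc11a2-201 together stood above Slc40a1-201 by a factor of 2.90 in replicate 2 and 3.01 in replicate 1. Slc11a2-205 alone stood above Slc40a1-201 by a factor of 2.38 in replicate 2 and 1.92 in replicate 1. These transcript comparisons were chosen after seeing the data.

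Cp, the copper ferroxidase that oxidises exported iron, had 5.85 TPM and 357 counts in replicate 2, and 4.95 TPM and 276 counts in replicate 1 (chr3:19957054-20009145, plus strand, ENSMUSG00000003617.16). The log2 difference was 0.26 (counting SE 0.12), and the intervals overlapped. Ceruloplasmin is known in a secreted form and in a membrane-anchored form made by splicing at the 3′ end. The annotation holds 5 transcripts with a nearly whole coding sequence and 2 coding ends. Those with the earlier end (Cp-202 and Cp-203) summed to 1.55 TPM in replicate 2, against 1.60 TPM in replicate 1, and those with the later end (Cp-201, Cp-204 and Cp-205) to 2.57 TPM in replicate 2, against 2.17 TPM in replicate 1. The second table reversed the order of the ends. There the earlier end summed to 1.81 TPM in replicate 2, against 1.76 TPM in replicate 1. The later end summed to 1.73 TPM in replicate 2, against 1.30 TPM in replicate 1, so the ends could not be ranked. Single transcripts were less stable than these sums: Cp-202 had 1.55 TPM in replicate 2, against 0.51 TPM in replicate 1, while Cp-203 had 0 TPM in replicate 2, against 1.09 TPM in replicate 1. The files do not say which end is which form.

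The storage genes differed little in scaled counts. Fth1, the heavy chain with the ferroxidase site of ferritin, had 1363 TPM and 18180 counts in replicate 2, and 1261 TPM and 16797 counts in replicate 1 (chr19:9980598-9985098, plus strand, ENSMUSG00000024661.7). Its log2 difference in scaled counts was 0.0022 (counting SE 0.015), while its TPM intervals did not overlap, 1278 to 1348 in replicate 2 and 1181 to 1246 in replicate 1. Most of that gap in TPM lay in a short transcript: Fth1-206, 333 bases long, had 276 TPM in replicate 2, against 197 TPM in replicate 1 in the first table, and 0 TPM in both libraries in the second. Of the 100-base windows of Fth1-206, 74.8% also occur in Fth1-201. Fth1-201, which carries the stem-loop, had 1064 TPM in replicate 2, against 1045 TPM in replicate 1, with overlapping intervals. The deposited intervals belong to the posterior mean, and the deposited level itself lies outside its own interval for Fth1, Slc40a1 and Cp in both libraries.

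Ftl1, the light chain that promotes mineral formation inside the shell, had 98.2 TPM and 1551 counts in replicate 2, and 99.1 TPM and 1536 counts in replicate 1 (chr7:45457944-45459884, minus strand, ENSMUSG00000050708.16). Its log2 difference was -0.098 (counting SE 0.052). The heavy chain exceeded the light chain 13.9-fold in TPM in replicate 2, against 12.7-fold in replicate 1, a mean of 13.3 ± 0.813 (SD, n = 2). This ratio depends on a near-identical copy. Ftl1-ps1, a retrocopy on chromosome 13 that the annotation lists as protein-coding, had 82.1 TPM and 1297 counts in replicate 2, and 95.4 TPM and 1445 counts in replicate 1. Of the 869 windows of 100 bases in Ftl1-201, 515 (59.3%) occur letter for letter in Ftl1-ps1-202, and the copy holds the same 30 letters at its stem-loop (chr13:74406427-74406456). With every ferritin pseudogene added to its parent, the heavy to light ratio was 7.26 in replicate 2 and 6.27 in replicate 1. How the authors' counting split reads between Ftl1 and Ftl1-ps1 was not tested, so both Ftl1 and the ratio are uncertain.

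The other ferritin features were low. Ftl2-ps had 7.92 TPM in replicate 2, against 7.06 TPM in replicate 1, but 0.769 TPM in replicate 2, against 0.957 TPM in replicate 1 in the second table, and it shares 23.8% of the Ftl1-201 windows. Fth-ps2 had 3.44 TPM from 27 counts in replicate 2 and 2.12 TPM from 16 counts in replicate 1. Of the 17 features named as ferritins, 12 had 0 counts in both libraries. Among these was Ftmt, mitochondrial ferritin, for which 3 counts, the limit that a count of 0 allows, would be 0.118 TPM in replicate 2, against 0.123 TPM in replicate 1.

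The sensing genes were at moderate levels. Ireb2, iron regulatory protein 2, which is degraded when iron is plentiful, had 23.1 TPM and 2438 counts in replicate 2, and 22.7 TPM and 2319 counts in replicate 1 (chr9:54863789-54912530, plus strand, ENSMUSG00000032293.8). Its log2 difference was -0.040 (counting SE 0.042), and a single transcript, Ireb2-201, held 97.4% of its counts in replicate 2 and 98.7% in replicate 1. Ireb2-201 stood at 22.22 TPM in replicate 2, against 22.25 TPM in replicate 1. Aco1, which is cytosolic aconitase when it holds an iron-sulfur cluster and iron regulatory protein 1 when it does not, had 15.1 TPM and 961 counts in replicate 2, and 12.6 TPM and 778 counts in replicate 1 (chr4:40143081-40198338, plus strand, ENSMUSG00000028405.9). Its log2 difference was 0.19 (counting SE 0.070), with gene-level intervals that overlapped. The Ireb2 level stood above the Aco1 level in both libraries, by a factor of 1.52 in replicate 2 and 1.81 in replicate 1.

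**Figure D4:**
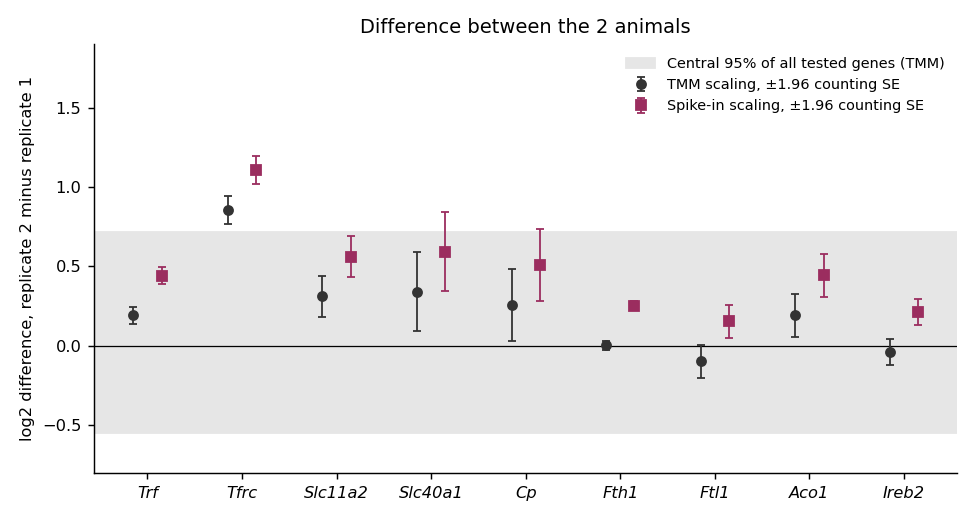
Log2 difference, replicate 2 minus replicate 1, of the 9 genes with bars of ±1.96 counting SE, under TMM scaling (circles) and spike-in scaling (squares), with the central 95% of all genes compared under TMM as a grey band. Tfrc, at 0.86 under TMM, is the only one of the 9 above the band, and spike-in scaling puts all 9 above 0.

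The gene level in TPM sums over every annotated transcript, short fragments included, so the order was also read from the transcript with the most counts in each gene. On that scale Fth1-201 stood at 1055 ± 13.3 TPM, Trf-201 at 104 ± 13.4 TPM and Ftl1-201 at 90.6 ± 4.94 TPM (SD, n = 2). Ireb2-201, at 22.2 ± 0.0212 TPM, and Tfrc-201, at 22.1 ± 10.7 TPM, could not be ranked (SD, n = 2), since Tfrc-201 stood above Ireb2-201 in replicate 2 and below it in replicate 1. Aco1-201 followed at 12.4 ± 1.48 TPM, and Slc11a2-205, at 8.63 ± 2.89 TPM, stood below it, whereas the Slc11a2 gene level stood above the Ireb2 and Aco1 gene levels (SD, n = 2). Over all 9 genes the median share of TPM in protein-coding transcripts was 88.6% in replicate 2 and 90.5% in replicate 1, with Trf lowest at 57.4% in replicate 2 and 54.0% in replicate 1.

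Marker lists of the cell types that the tissue can hold differed between the libraries in both directions, beside a background of 7.02% of all genes called higher and 4.09% called lower. Of 10 oligodendrocyte markers 4 were called higher in replicate 2 (Mag, Cnp, Aspa and Opalin, which encode myelin or oligodendrocyte proteins) and 1 lower (Ermn, not called under spike-in scaling), and their summed level was 1978 TPM in replicate 2, against 1791 TPM in replicate 1. Mag had 120 TPM in replicate 2, against 75.7 TPM in replicate 1. Of 8 choroid plexus markers 3 were detected and 2 were called lower, and the summed level was 62.5 TPM in replicate 2, against 182 TPM in replicate 1, nearly all of it Ttr, the thyroid hormone carrier transthyretin, at 55.7 TPM in replicate 2, against 172 TPM in replicate 1. Both calls held under spike-in scaling. Choroid plexus also expresses Trf and Cp.

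Of 7 endothelial markers none was called higher and 1 was called lower (Slc2a1, the glucose transporter of brain vessels, at 39.4 TPM in replicate 2, against 47.9 TPM in replicate 1), and they summed to 144 TPM in replicate 2, against 164 TPM in replicate 1. Under spike-in scaling Slc2a1 was not called (-0.014), and 5 of the 7 had positive differences, against 2 of 7 under TMM. Of mural cell markers, which belong to the vessel wall, all 4 with enough counts had positive differences (median 0.26), 1 of them called (Vtn, vitronectin, at 40.7 TPM in replicate 2, against 32.3 TPM in replicate 1), and the list summed to 74.7 TPM in replicate 2, against 62.2 TPM in replicate 1. Of meningeal markers all 5 with enough counts had positive differences (median 0.31), none of them called, and the list summed to 77.2 TPM in replicate 2, against 62.6 TPM in replicate 1. These medians stand beside log2 differences of 0.34 for Slc40a1, 0.26 for Cp and 0.19 for Trf. Red blood cell markers summed to 538 TPM in replicate 2, against 462 TPM in replicate 1, almost all of it haemoglobin. Slc4a1, the anion exchanger of the red cell membrane, was at 0.04 TPM in replicate 2, against 0.06 TPM in replicate 1. Microglial markers summed to 190 TPM in replicate 2, against 188 TPM in replicate 1, and astrocyte markers to 1584 TPM in replicate 2, against 1600 TPM in replicate 1. Of 8 microglial markers 1 was called lower, a call lost under spike-in scaling, and of 8 astrocyte markers none was called under TMM. The lists of oligodendrocyte precursors, excitatory neurons and inhibitory neurons each held 1 gene called lower and none called higher. Under spike-in scaling the inhibitory neuron call was lost, while 3 excitatory neuron, 1 precursor and 1 astrocyte marker were called higher. That scaling also called 2 further oligodendrocyte markers, 1 further mural marker and 2 red blood cell markers higher, beside 13.5% of all genes called higher under it. The part of any of these cell types in the differences of Tfrc, Trf, Cp or Slc40a1 was not tested.

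Around the 9 genes, 114 genes of iron metabolism in 9 lists, 111 of them annotated, were read in the same way. Of the 95 that averaged 50 counts or more, 4 were called higher in replicate 2 and 2 lower (6.32%, against 11.1% of all genes compared), and their median log2 difference was -0.032, against 0.0024 for all genes compared and 0.19 for the 9 genes. The genes called higher were Ppox, an enzyme of haem synthesis, Slc25a28 (mitoferrin 2, which brings iron into mitochondria), Abcb8, a mitochondrial transporter, and Nqo1, a quinone reductase. Those called lower were Snx3, a sorting nexin that recycles the transferrin receptor, and Id1, a target of bone morphogenetic protein signalling. Under spike-in scaling neither of these was called (-0.035 for Snx3 and -0.20 for Id1), and 11 of the 95 were called higher (11.6%, against 15.3% of all genes), among them the 4 named here. Slc25a28 had 23.9 TPM in replicate 2, against 16.3 TPM in replicate 1, and Ppox had 14.4 TPM in replicate 2, against 7.24 TPM in replicate 1.

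Among other uptake genes 0 of 11 were called higher and 1 lower, beside 7.02% of all genes compared called higher and 4.09% lower. Counts in lists this short say nothing of a list as a whole. Snx3 had 83.7 TPM in replicate 2, against 99.99 TPM in replicate 1, a log2 difference of -0.29. Tfr2, the second transferrin receptor, had 5.08 TPM in replicate 2, against 3.06 TPM in replicate 1, a log2 difference of 0.65 with overlapping intervals. Slc22a17, a receptor for lipocalin 2, was the most abundant of them at 281 TPM in replicate 2, against 251 TPM in replicate 1. Vps35 of the retromer had 60.7 TPM in replicate 2, against 65.3 TPM in replicate 1, and Slc39a14, a zinc and iron transporter, had 16.7 TPM in replicate 2, against 16.3 TPM in replicate 1. Steap3, an endosomal ferrireductase, was low at 2.96 TPM in replicate 2, against 2.57 TPM in replicate 1.

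Of the genes of export, ferroxidase activity and haem transport 0 of 7 were called, beside 11.1% of all genes compared. Heph, the ferroxidase hephaestin, had 1.98 TPM in replicate 2, against 1.95 TPM in replicate 1, below Cp, and Hephl1 was at 0. Of 5 genes of ferritin turnover and iron delivery none was called. Ncoa4, the receptor that takes ferritin to the lysosome, had 48.4 TPM in replicate 2, against 44.4 TPM in replicate 1. Pcbp1, which delivers iron to ferritin, had 84.7 TPM in replicate 2, against 87.9 TPM in replicate 1. Fbxl5, the ubiquitin ligase subunit that senses iron and marks Ireb2 for degradation, had 42.2 TPM in replicate 2, against 41.3 TPM in replicate 1.

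The other transcripts listed as holding an iron responsive element were not called either (0 of 7). The list counts in this paragraph also stand beside 11.1% of all genes compared. App, the amyloid precursor protein, had 673 TPM in replicate 2, against 614 TPM in replicate 1, and Epas1, the hypoxia factor HIF-2α, 47.7 TPM in replicate 2, against 44.6 TPM in replicate 1. Of 27 genes of mitochondrial iron and iron-sulfur clusters 2 were called higher and none lower, and Hspa9, the chaperone of cluster transfer, was the most abundant at 88.2 TPM in replicate 2, against 86.3 TPM in replicate 1. Of 12 genes of haem synthesis 1 was called higher and none lower, and Alas1, the first enzyme of the pathway outside red cells, had 66.1 TPM in replicate 2, against 60.9 TPM in replicate 1. Of 7 genes of haem breakdown and scavenging none was called, and Hmox2, the constitutive haem oxygenase, had 43.5 TPM in replicate 2, against 43.45 TPM in replicate 1. Of 10 genes of lipid peroxide defence 1 was called higher, and Gpx4, the main such enzyme, had 224 TPM in replicate 2, against 249 TPM in replicate 1. Of 12 genes of the hepcidin axis 1 was called lower. Hamp, hepcidin itself, had 3 counts in replicate 2 and 0 in replicate 1, and Hamp2 had 0 in both.

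**Figure D5:**
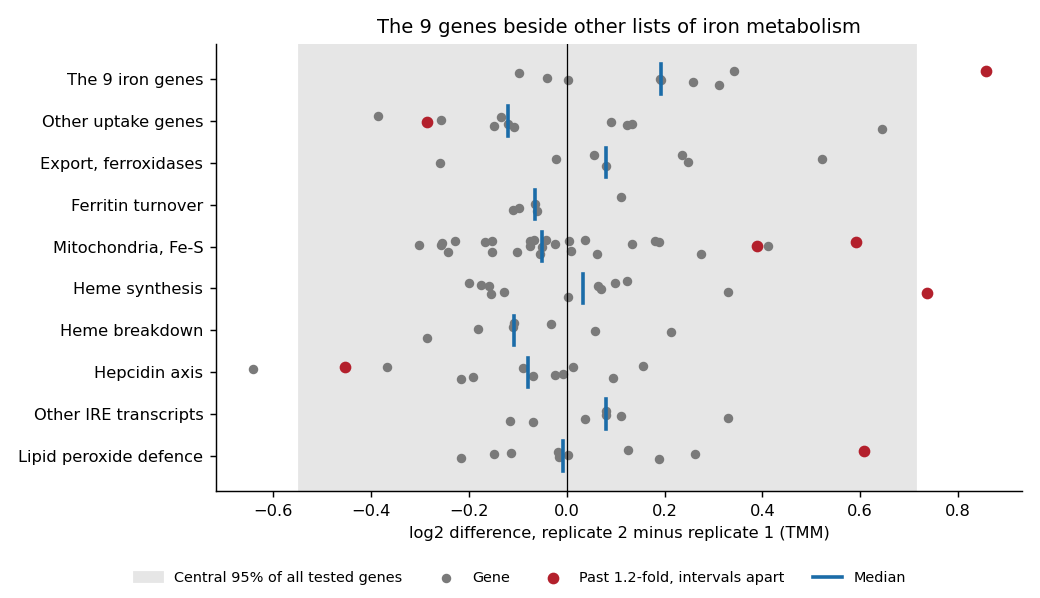
Log2 difference, replicate 2 minus replicate 1 under TMM, of the 9 genes (top) and of the measured genes of each iron list, with medians as blue bars, called genes in red and the central 95% of all genes compared as a grey band. The median of the 9 genes is 0.19, and list medians lie on both sides of 0.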

How the data were processed

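Both libraries form 1 group, with replicate numbers from the labels, which give both animals the same donor entry, so their separateness rests on the animal numbers. Per the deposited readme, reads were mapped to mm10 with GENCODE M21. The aligner, the quantifier and the use of strand were each not given in the sources used here. Reads of CAST/EiJ alleles may be counted less often on the reference genome. The authors deposited, per library, a gene and a transcript table (first table, RSEM layout) with expected counts, TPM, credibility bounds (scores of unstated level) and the percent of each gene in each transcript, and a second transcript table (kallisto layout) with estimated counts and TPM.

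Expected counts were rounded, scaled with TMM factors (edgeR 4.0.16, R 4.3.3) over genes averaging 50 counts or more, and turned into log2 CPM with a prior count of 1. Effective library sizes stood at 1.08 (replicate 2 over replicate 1) under TMM and DESeq2 1.42.0 size factors, and at 0.908 under spike-ins. No test between animals was run. The 9 genes and all lists were chosen with earlier results of these data known. Named genes are the 9, up to 4 highest and 3 most different per iron list, up to 3 highest per cell type list and transcripts of at least 10% of a gene's TPM; Heph, Hephl1, Fbxl5, Epas1, Steap3, Slc39a14, Hamp, Hamp2, Slc4a1 and the called oligodendrocyte markers were named after their values were seen. Some genes of the lists are not reported here by name. Stem-loop coordinates come from GENCODE M21 on mm10. Counting SEs and the floor of 3 counts cover counting error only.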

Additional observations from a re-analysis of the deposited data

How the results depend on the processing

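No paired analysis was possible because the libraries form a single group. The median level of the 9 genes was 28.2 TPM over both libraries, 25.7 TPM in the second table, 32.99 TPM in replicate 2 alone and 23.48 TPM in replicate 1 alone, and 58.4 TPM when rescaled to nuclear protein-coding genes. The heavy to light ferritin ratio was 13.3, and became 11.99 in the second table, 11.3 in counts and 6.76 with pseudogenes, with 13.9 in replicate 2 alone and 12.7 in replicate 1 alone. The median log2 difference was 0.19, and 0.44 under spike-in scaling, which called 2 of the 9 genes (Tfrc and Trf) and 11 genes of the iron lists, where TMM called 1 and 6. Of those 6 list genes 4 kept their call, 2 (Snx3 and Id1) lost it and 7 others gained one, while the share of all genes called was 15.3% under spike-ins and 11.1% under TMM. The other scalings, prior counts of 0.25 and 5, posterior counts, the second table and a threshold of 1.5-fold each called 1 of the 9. In every setting, spike-ins included, only the fold part of the call changed, and the intervals stayed those of the deposited TPM in the first table. Among the 9 genes these lay apart for Tfrc, Trf and Fth1 alone, so no other gene of the 9 could be called in any setting. The median share of TPM in protein-coding transcripts was 89.5%, 84.3% in posterior means and 94.99% in counts. The share of Slc11a2-205, an alternative chosen after seeing the data, kept its order of libraries in TPM, posterior means, counts and the second table. Among values of single genes and single lists 149 stayed within their error or within 1.5-fold of the count and 46 moved. Of those that moved, 9 are the log2 differences under spike-in scaling and 9 the levels rescaled to protein-coding genes, and no called value changed sign. The 149 include every value with 1 library left out, and these could not move. With 2 libraries, leaving 1 out always shifts a mean by less than the SD taken as its error. Those values therefore say nothing of stability. Depth limits Cp (357 counts in replicate 2, 276 in replicate 1) and Slc40a1 (307 in replicate 2, 224 in replicate 1) most.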
